A study of Drosophila melanogaster with 12 samples.

Results

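The proximal part (PP) of lglRNAi;RasV12-glands was compared with entire RasV12-glands from Drosophila melanogaster larvae, on poly(A)-selected RNA from dissected salivary glands (SGs). The members are the 6 libraries of these groups, 3 of the PP and 3 of entire RasV12-glands, out of 12 libraries in all. The other 6 come from entire lglRNAi;RasV12-glands and entire w1118-glands, and they enter the fit, where all 12 libraries share one estimate of the spread, and otherwise serve to place a value. Larvae were kept at 29 °C and glands were taken at 96 hr after egg deposition (AED), with 30 gland pairs per replicate for entire glands and 60 for the PP. RasV12-glands carry UAS-RasV12, a Ras GTPase locked in its active state, and lglRNAi;RasV12-glands carry UAS-RasV12 and an RNAi construct against lethal (2) giant larvae (l(2)gl), a cell polarity gene. Both are driven in the gland by the enhancer trap line Bx-Gal4. According to the labels every cross, w1118 included, also carries the reporter Drs-GFP, a point on which the study's list of crosses is narrower. The sample labels call the isolated piece the posterior part, whereas the study calls it the proximal part, and the abbreviation PP is used here. In this comparison the gland region and the l(2)gl knockdown change together, so that their shares cannot be told apart from these 6 libraries alone, and values from entire lglRNAi;RasV12-glands stand beside the main genes for that reason.

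A larval SG is a bilobed secretory organ. Its large polyploid cells make the glue proteins that fix the animal to a surface at pupariation, and a duct of smaller cells at the proximal end leads to the mouth. Antimicrobial peptides (AMPs) are secreted defence peptides whose genes are induced through the Toll pathway (via the NF-kappaB factors dl and Dif) or the Imd pathway (via Rel). In bulk RNA of this kind, fewer cells of a type and less RNA per cell cannot be told apart. 

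Total estimated counts were 29532039 to 73043536 in the PP, with replicate 2 the deepest, and 33240912 to 36122132 in RasV12-glands. A floor of 3 counts corresponded to 0.0411 to 0.102 CPM (counts scaled to a library total of 1000000), which covers counting error only. The 20 most abundant genes took 19.4% to 21.4% of counts in the PP and 21.8% to 24.2% in RasV12-glands. Transcripts of the mitochondrial genome took 0.234% to 0.762% in the PP, highest in replicate 3, and 0.188% to 0.212% in RasV12-glands. Pearson's r of log CPM across genes was 0.984 to 0.987 within the PP, 0.983 to 0.988 within RasV12-glands, and 0.942 to 0.962 between them. The first principal component of the 6 libraries took 67.8% of the variance and separated the groups, while the second took 12.0%. Nothing in the labels says that replicates came from separate cultures, so that p-values measure the spread between these samples. All values below are TMM-normalized CPM, given for replicates 1, 2 and 3 of a group in that order.

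The targeted genes were examined first as a check of the labels. Ras85D, which encodes the endogenous Ras and shares its sequence with the transgene, stood at 2867, 2411 and 2733 CPM in the PP and at 3117, 2766 and 3454 CPM in RasV12-glands. The groups overlapped, and both lay far above the 54.3 to 75.1 CPM of w1118-glands. The log2 fold change of the PP over RasV12-glands was -0.22 (SE 0.14, adjusted p = 0.218, edgeR's quasi-likelihood test). l(2)gl was at 208, 282 and 242 CPM in the PP and at 264, 244 and 286 CPM in RasV12-glands, so that the groups overlapped (log2 fold change -0.12, SE 0.14, adjusted p = 0.54). In entire lglRNAi;RasV12-glands l(2)gl was lower, at 148 to 191 CPM. The transcript count of l(2)gl therefore does not separate the PP from RasV12-glands, and whether reads of the RNAi construct were counted to the gene was not tested. The gene tio, a zinc finger gene that some lines of this RNAi collection are known to misexpress, stayed at or below 0.671 CPM in all 6 libraries (log2 fold change 2.16, adjusted p = 0.0739, edgeR), and it was called higher without RasV12 replicate 2 (log2 fold change 4.84).

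Of 9012 genes tested, 784 were higher in the PP (8.7%) and 490 were lower (5.44%), where a call needs an adjusted p of 0.05 or less in edgeR's quasi-likelihood test and 1 log2 unit or more of difference. Replicates did not overlap between the groups for 772 of the higher and 483 of the lower genes, against 52.4% of all genes tested. The median log2 fold change over all genes was 0.02, with quartiles at -0.30 and 0.39. Differences of at least 3 on the log2 scale were seen for 112 higher and 53 lower genes. Of the higher genes 347, and of the lower 203, have no name beyond an annotation number. The share of such genes among all genes tested was not counted. 

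**Figure D1:**
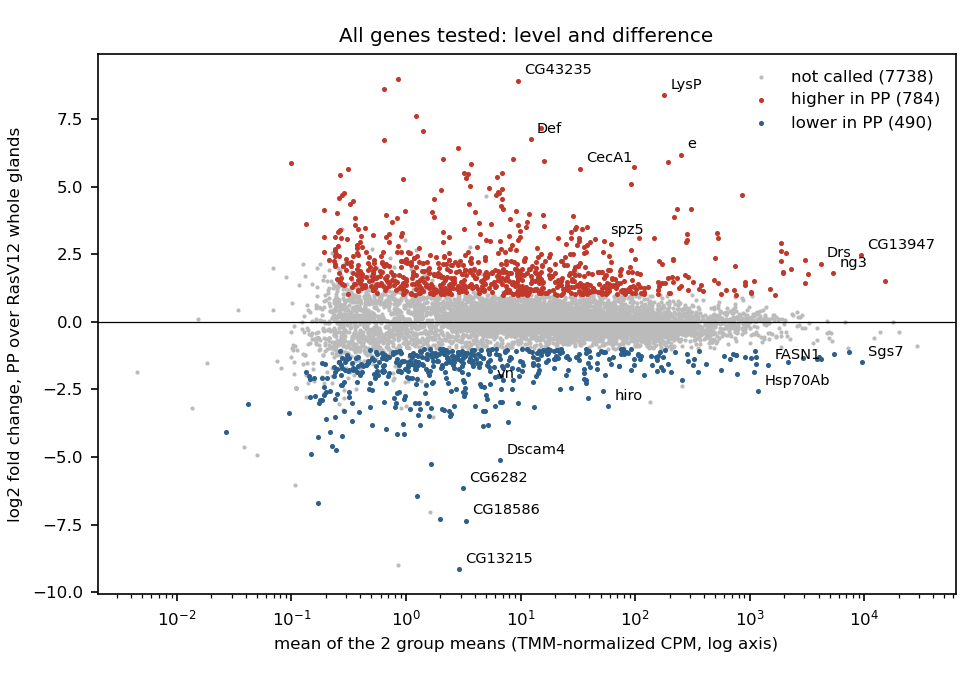
Each point is one of 9012 genes, with its mean level in TMM-normalized CPM (log axis) against the log2 fold change of the PP over RasV12-glands. Red marks the 784 genes higher in the PP and blue the 490 lower, and called genes of high CPM lie on the right, such as CG13947 above and Sgs7 below the line of no difference.

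AMP genes were the group with the largest median among those listed. Of 28 AMP genes listed, 16 were expressed enough to be tested. Of the 16, 9 were higher in the PP and 0 lower, against 8.7% and 5.44% of all genes. The median log2 fold change of the 16 was 2.82 against 0.02 for all genes. Drs, which encodes the antifungal peptide Drosomycin, is the gene behind the reporter. Whether reads of the reporter were counted to Drs was not tested. Among the crosses used for sequencing, the study's list names the reporter only for those with the l(2)gl knockdown. Drs stood at 6695, 7573 and 6183 CPM in the PP and at 1341, 1459 and 1797 CPM in RasV12-glands, and no PP library came near the highest RasV12 library. The difference was 4.45-fold (log2 fold change 2.15, SE 0.46, adjusted p = 0.00391, edgeR). Entire lglRNAi;RasV12-glands were at 1496 to 1779 CPM, within the range of RasV12-glands, and w1118-glands at 1.46 to 12.8 CPM. Drs lies on chromosome 3L at 3369556 to 3369942 (dm6, plus strand).

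The other called AMP genes differed by more on the log2 scale. Def, which encodes the antibacterial peptide Defensin, was at 15.0, 48.0 and 9.76 CPM in the PP against 0.160, 0.311 and 0.191 CPM in RasV12-glands, a 108-fold difference (adjusted p = 1.95e-05, edgeR). Def overlaps magu on the opposite strand, and reads from overlapping genes cannot be assigned by strand in these libraries. AttD, one of the attacin genes, was at 200.5, 761 and 181 CPM in the PP against 4.91, 4.92 and 9.19 CPM (log2 fold change 5.91, SE 0.80). CecC, a cecropin gene, was at 242, 635 and 352 CPM against 23.7, 25.3 and 34.5 CPM (log2 fold change 3.88, SE 0.40). In each of these genes the lowest PP library was above the highest RasV12 library, and replicate 2 of the PP was the highest. The neighbouring cecropin genes on chromosome 3R behaved alike in direction. CecA1 was at 29.5, 131 and 32.7 CPM against 0.320, 0.337 and 3.20 CPM, and CecA2 and CecB were higher by 5.01 and 4.82 on the log2 scale. These cecropin genes have similar sequences, so that the split of reads among them is uncertain. DptA and DptB, which encode diptericins and are also alike in sequence, were higher by 4.08 and 3.49 on the log2 scale. In entire lglRNAi;RasV12-glands DptA and DptB reached 15.0 and 14.5 CPM in single libraries, within the range of the PP. w1118-glands held 0.914 to 9.78 CPM of DptA and 2.44 to 14.0 CPM of DptB. Both ranges overlapped the PP, whose lowest libraries were at 6.11 and 6.71 CPM.

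Not every AMP gene followed. AttC, another attacin gene, was at 0.629, 0.358 and 0.531 CPM in the PP and at 3.60, 2.41 and 0.574 CPM in RasV12-glands (log2 fold change -2.17, adjusted p = 0.13, edgeR), and it was called lower when only the 6 libraries were fitted (adjusted p = 0.0296, edgeR). AttA and AttB, a pair of near-identical genes, had log2 fold changes of 1.64 and -0.16 and overlapping replicates. In entire lglRNAi;RasV12-glands AttC reached 33.8 CPM in one library, above every library of the PP. Mtk, BomS2, BomS3 and Dro stayed at or below 0.853 CPM in all 6 libraries. Replicate 2 of the PP, which was also the deepest library, was the highest of its group for all 9 called AMP genes, and without it 8 AMP genes were called higher, DptB being lost (adjusted p = 0.0711, edgeR). DptA was not called without RasV12 replicate 1 (adjusted p = 0.0504, edgeR), nor DptB without RasV12 replicate 3 (adjusted p = 0.0522, edgeR). Markers of hemocytes, cells that can also make these peptides, summed to 279 to 309 CPM in the PP against 154 to 196 CPM. Of 14 markers 6 were called higher. Within the sum atilla, which other tissues also express, held 64.1 to 76.2 CPM against 8.43 to 10.5 CPM. Hml, eater, NimC1, Pxn and Sr-CI were lowest in PP replicate 2, whereas atilla and the sum were highest there, like the called AMP genes. On RasV12-glands the paper found hemocytes only on the distal part by staining, and CecA1 transcripts only in the PP by in situ hybridization. Fat body markers were lower in the PP. The part of hemocytes or fat body in the AMP counts was not tested.

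**Figure D2:**
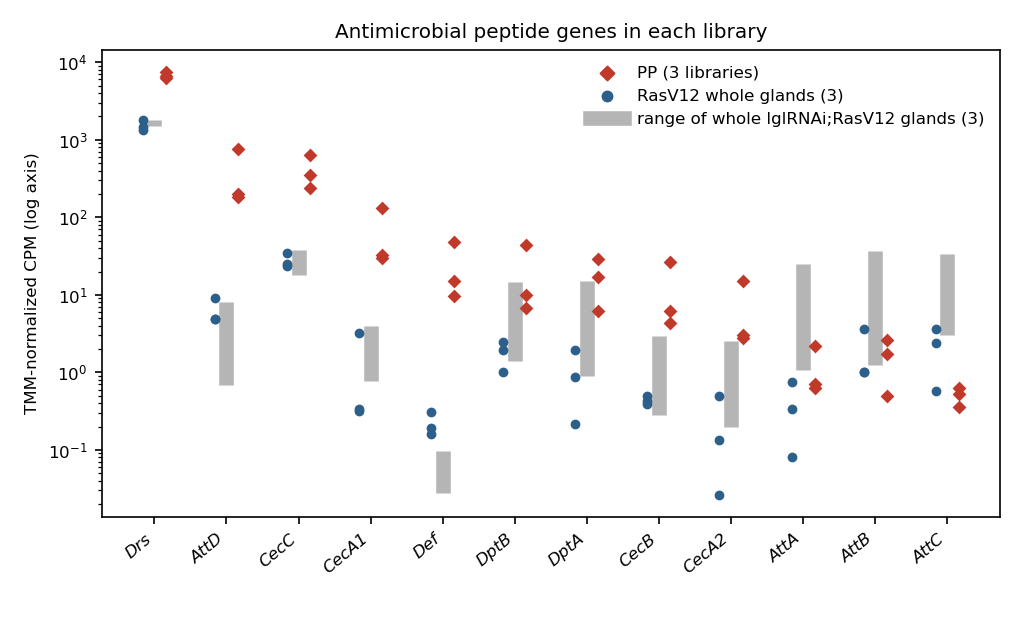
CPM (log axis) of 12 AMP genes in each PP library (red diamonds) and RasV12 library (blue circles), with the range of the 3 entire lglRNAi;RasV12 libraries as a grey bar. The first 9 genes were higher in the PP with no overlap, whereas AttA, AttB and AttC overlapped between the groups.

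In the Imd pathway, of 23 tested genes 5 were higher and 0 lower, against 8.7% and 5.44% of all genes. The median of the list was -0.05. PGRP-LC, the membrane receptor for bacterial peptidoglycan, was at 129, 171 and 138 CPM in the PP against 39.2, 37.0 and 46.1 CPM in RasV12-glands, 3.58-fold higher. PGRP-LA and PGRP-LF are its neighbours on chromosome 3L, and PGRP-LF encodes an inhibitor of the pathway. PGRP-LF was at 19.4, 31.0 and 22.2 CPM against 3.49, 3.50 and 3.83 CPM (log2 fold change 2.75, SE 0.32), and PGRP-LA was higher by 1.25 on the log2 scale. The inhibitor gene pirk was higher by 2.60, at 7.25, 19.2 and 11.2 CPM against 1.92, 1.66 and 2.68 CPM. Rel, the NF-kappaB factor of the pathway, was at 223, 362 and 218 CPM against 142, 119.9 and 124 CPM (log2 fold change 1.06, adjusted p = 0.00454, edgeR), and missed the fold limit without PP replicate 2 (0.78) or RasV12 replicate 2. None of these genes overlapped between the groups, and in each of them entire lglRNAi;RasV12-glands had a lower mean than the PP. The adaptor gene imd and the kinase gene Tak1 were not called.

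In the Toll pathway 5 of 25 tested genes were higher and 2 lower, against 8.7% and 5.44% of all genes. The median of the list was 0.20. The ligand gene spz5 was at 85.5, 90.2 and 109 CPM in the PP and at 12.3, 11.0 and 12.1 CPM in RasV12-glands, 8.04-fold higher (SE 0.12 on the log2 scale, adjusted p = 5.31e-08, edgeR). Its level was 18.8 to 24.3 CPM in entire lglRNAi;RasV12-glands and 0.610 to 0.671 CPM in w1118-glands. cact, which encodes the inhibitor that holds dl and Dif in the cytoplasm, was at 363, 330.4 and 385 CPM against 153, 126 and 157 CPM (log2 fold change 1.31). Pli, a Pelle-interacting regulator, was higher by 1.27 and stood at 82.2 to 86.7 CPM in entire lglRNAi;RasV12-glands, a range that overlapped the lowest PP library. The receptor genes 18w and Toll-4 were higher by 1.86 and 2.81 on the log2 scale. Neither was called on log2(TPM + 1), where low genes count less (0.82 and 0.15), nor Toll-4 on log2(TPM + 0.1) (0.93). The protease gene psh and the recognition gene GNBP1, both of which act outside the cell, were lower by 1.45 and 1.13 on the log2 scale, the latter by 0.92 and not called without PP replicate 1. The transcription factor genes did not separate the groups, with dl at 116, 114 and 105 CPM against 125, 98.2 and 106 CPM, and Dif at 34.4, 45.4 and 32.0 CPM against 41.5, 32.3 and 23.7 CPM. Mef2, a factor gene of muscle and fat body, was at 53.04, 60.03 and 49.93 CPM in the PP and at 138, 128 and 154 CPM in RasV12-glands, and was lower by 1.36 on the log2 scale.

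JAK-STAT signalling relays cytokines of the Unpaired family to the factor Stat92E. Of 16 tested genes in this list 3 were higher and 0 lower, against 8.7% and 5.44% of all genes, with a median of 0.40. Socs36E, a feedback inhibitor and target of the pathway, was at 101, 198 and 107 CPM in the PP against 53.01, 29.00 and 32.31 CPM in RasV12-glands (log2 fold change 1.83, SE 0.34). TotA, a stress-induced humoral factor gene, was at 127, 107 and 109 CPM against 28.3, 50.3 and 23.5 CPM, and TotC was higher by 1.74 on the log2 scale. TotC was not called without PP replicate 1, RasV12 replicate 1 or RasV12 replicate 3 (adjusted p = 0.0554 to 0.0694, edgeR). For TotA, entire lglRNAi;RasV12-glands reached 73.2 to 114 CPM, which overlapped the PP. Stat92E passed the adjusted p but not the limit on the fold change, with a log2 fold change of 0.62, and the ligand gene upd3 overlapped between the groups (0.54, adjusted p = 0.194, edgeR).

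The JNK list holds stress kinases and their targets. Of 26 tested genes 5 were higher and 0 lower, against 8.7% and 5.44% of all genes, with a median of -0.05. scaf and Gadd45, both known targets of JNK, were the largest differences. scaf was at 11.5, 20.9 and 12.9 CPM in the PP against 4.24, 3.47 and 2.68 CPM in RasV12-glands, and Gadd45 at 33.7, 47.8 and 42.5 CPM against 11.0, 8.76 and 9.36 CPM. For Gadd45 the range in entire lglRNAi;RasV12-glands was 20.4 to 23.3 CPM, between the groups. Traf4 and the TNF receptor gene wgn were higher by 1.77 and 1.29 on the log2 scale, and mol by 1.08, which fell below the fold limit without PP replicate 3 (0.95) or RasV12 replicate 2 (0.97). Other members were not called. puc, the phosphatase gene that serves as a common read-out of JNK, was at 115, 141 and 115 CPM in the PP and at 229, 180.0 and 191 CPM in RasV12-glands, a difference below the limit on the fold change (log2 fold change -0.69, adjusted p = 0.0148, edgeR). The TNF ligand gene egr had a log2 fold change of -0.82 and also fell short of that limit. Mmp1, a matrix metalloproteinase gene, was at 522, 1141 and 585 CPM against 521, 339 and 242 CPM, and was not called (log2 fold change 1.03, adjusted p = 0.0567, edgeR), although it was called without PP replicate 1 (1.24) or RasV12 replicate 1 (1.37) and with library-size scaling (1.06). The cell death genes hid and rpr overlapped between the groups.

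Among Egfr and Ras-MAPK genes 2 of 29 tested were higher and 1 lower, against 8.7% and 5.44% of all genes, with a median of 0.08. pnt, the transcription factor gene downstream of MAPK, was at 13.0, 17.4 and 12.7 CPM in the PP against 6.35, 7.10 and 4.92 CPM, and Krn, an Egfr ligand gene, was higher by 1.15 on the log2 scale. vn, another Egfr ligand gene, went the other way, at 1.26, 2.74 and 1.31 CPM against 13.5, 7.49 and 6.13 CPM (log2 fold change -2.32, adjusted p = 0.005, edgeR). Its range in entire lglRNAi;RasV12-glands was 3.32 to 12.7 CPM.

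**Figure D3:**
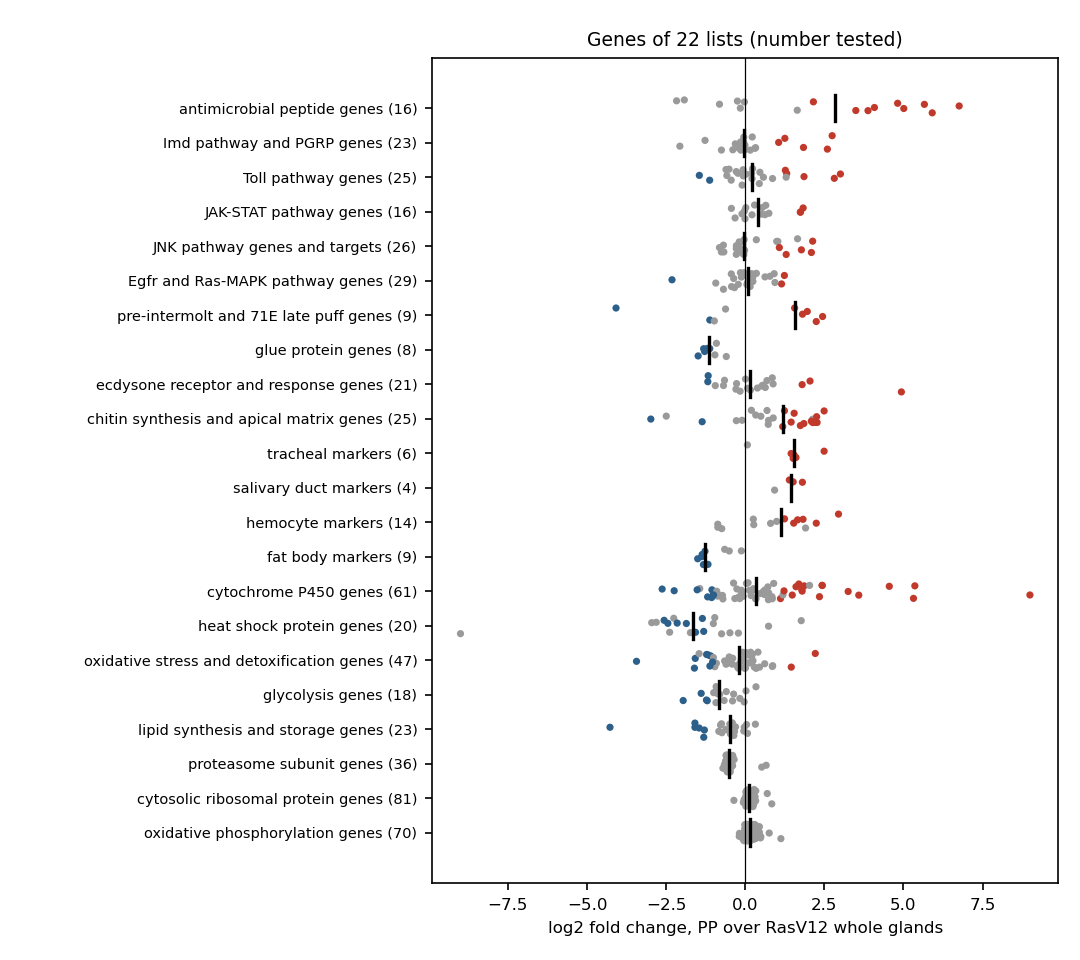
Log2 fold change of the PP over RasV12-glands (horizontal axis) for every tested gene of selected lists, with the number tested in brackets and the list's median as a black bar. Red and blue mark genes called higher and lower, and AMP genes have the highest median (2.82) and heat shock protein genes the lowest (-1.65).

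Genes of high CPM in the gland separated into opposite groups. Glue protein genes were lower in the PP. Of 8 tested 0 were higher and 5 lower, against 8.7% and 5.44% of all genes, with a median of -1.16. By adjusted p alone all 8 were lower, against 17.1% of all genes. Sgs7, a small glue protein gene, was at 6352, 4937 and 3770 CPM in the PP and at 11677, 16855 and 13766 CPM in RasV12-glands, and the groups did not overlap (log2 fold change -1.49, SE 0.22, adjusted p = 0.000386, edgeR). Its neighbour Sgs8, which is alike in sequence, was lower by 1.32. Sgs1 was at 4563, 3953 and 5306 CPM against 8060, 10309 and 11720 CPM, Eig71Ee was lower by 1.19 on the log2 scale, and Sgs5bis by 1.28. Sgs3, another glue gene, was at 14046, 22308 and 23235 CPM against 47650, 36277 and 28200 CPM, and with Sgs4 and Sgs5 it remained under the limit on the fold change (log2 fold changes -0.91, -0.96 and -0.60). Without RasV12 replicate 3, Sgs1 passed the adjusted p but not the fold limit (log2 fold change -0.99), whereas Sgs3 and Sgs4 passed it without that library (-1.07 each) or without PP replicate 3 (-1.03 and -1.02). For every Sgs gene of the list entire lglRNAi;RasV12-glands lay above every PP library, whereas for Eig71Ee they spanned 2579 to 3927 CPM and overlapped the PP.

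Other genes of high CPM were higher in the PP. The pre-intermolt genes ng1, ng2, ng3 and ng4 and Pig1, which are active in the gland before the glue genes, were all called higher, while Eig71Eb and Eig71Eg of the same list were called lower at or below 1.15 CPM. Eig71Eg was at 0 in all PP libraries and had 6 counts over the RasV12 libraries, at least 2.57-fold lower when set against a floor of 3 counts over the group, and without single libraries the lower calls of this list numbered 0 to 3. ng3 was at 8441, 8890 and 7847 CPM in the PP against 2179, 2043 and 2966 CPM in RasV12-glands (log2 fold change 1.81, SE 0.16, adjusted p = 8.99e-06, edgeR). ng1 and ng2, near-identical copies whose reads may be split unevenly, were higher by 2.24 and 1.96, and Pig1 stood at 799.9, 646 and 764 CPM against 218, 251 and 280.3 CPM. These genes lie together on chromosome X, and CG14265, from the same chromosome, was at 2368, 4460 and 3763 CPM against 599, 525 and 706 CPM. Among genes without a name, CG12310 was at 23582, 24703 and 19634 CPM against 6098, 8529 and 9250 CPM. CG13947 was at 11708, 21321 and 14823 CPM against 3328, 2590 and 2758 CPM, and its level in w1118-glands was 166 to 404 CPM. CG32198, the mucin gene Muc68Ca and CG17134 were higher by 2.29, 1.76 and 2.91 on the log2 scale. Unlike CG13947, several of these genes stood above every RasV12 library in w1118-glands. CG12310 was there at 13309 to 18899 CPM, ng3 at 3010 to 4328 CPM, CG32198 at 2365 to 3549 CPM and CG17134 at 1627 to 2133 CPM. Muc68Ca, at 7092 to 10282 CPM in w1118-glands, was also above every PP library. CG14265 in w1118-glands (596 to 845 CPM) overlapped RasV12-glands. PH4alphaSG1, a prolyl hydroxylase gene of the gland, was at 289, 279 and 308 CPM against 77.5, 88.8 and 119.8 CPM, while its relative PH4alphaSG2 had a log2 fold change of -0.44. ng3 and CG14265 overlap dnc, CG12310 overlaps Sytbeta, and CG17134 overlaps Nos, and reads from overlapping genes cannot be assigned by strand in these libraries.

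**Figure D4:**
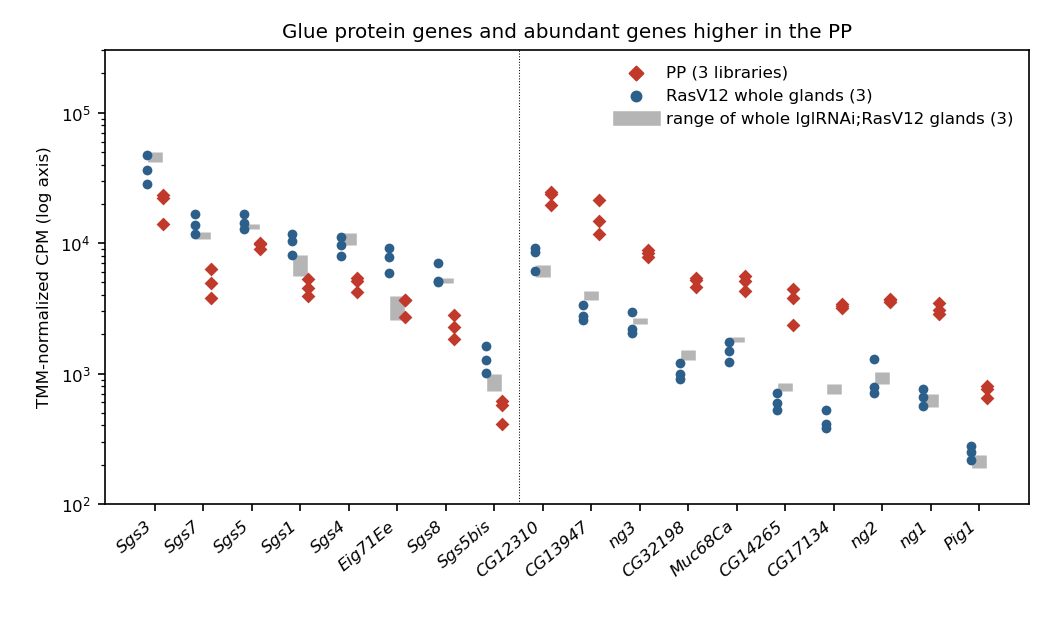
CPM (log axis) of the 8 glue protein genes, left of the dotted line, and of 10 genes of high CPM called higher in the PP, right of it, in PP (red diamonds) and RasV12 libraries (blue circles), with the range of entire lglRNAi;RasV12-glands in grey. All glue genes lie lower in the PP and all genes on the right lie higher, with no overlap between the groups.

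Transcription factor genes of the secretory cells were not called. fkh, the forkhead factor gene that sets SG fate, was at 329, 355 and 315 CPM in the PP and at 358, 264 and 292 CPM in RasV12-glands. sage and CrebA, which drive secretory genes, had log2 fold changes of -0.64 and -0.76, under the limit on the fold change. Duct marker genes were higher. trh, a factor gene of duct and trachea, was at 5.72, 7.52 and 6.71 CPM against 2.48, 2.02 and 2.49 CPM, toe was higher by 1.39 on the log2 scale, and the Notch ligand gene Ser, also a duct marker, was at 6.47, 10.04 and 9.62 CPM against 2.75, 2.44 and 2.30 CPM. eyg, the neighbour of toe, had a log2 fold change of 0.93 and narrowly missed the limit. Summed over the 4 duct markers, the PP held 229.5 to 254 CPM, RasV12-glands 94.8 to 113 CPM and entire lglRNAi;RasV12-glands 127 to 131 CPM. Summed secretory gland markers were 43954 to 51365 CPM in the PP and 81937 to 100278 CPM in RasV12-glands. That list includes the glue genes Sgs1, Sgs3, Sgs7 and Sgs8, of far higher CPM than fkh, so that the sum largely repeats their difference.

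The ecdysone list holds the steroid receptor and its responding genes. Of 21 tested 3 were higher and 2 lower, against 8.7% and 5.44% of all genes, with a median of 0.16. Eip78C, an early-late nuclear receptor gene, was at 4.73, 19.7 and 6.49 CPM in the PP against 0.373, 0.441 and 0.191 CPM in RasV12-glands (log2 fold change 4.93, SE 0.58). The other 2, Eip93F and Cyp18a1, stayed at or below 0.867 CPM, and 1 gene of the list was called higher whichever library was left out. br, which encodes the Broad factors of metamorphosis, was at 464, 534 and 327 CPM against 1016, 887 and 1081 CPM, lower by 1.17 on the log2 scale, and Blimp-1, a repressor gene, was also lower. Without PP replicate 3 neither was called (br at -0.99), and Blimp-1 was called in 1 of the 6 settings that leave out a library. Eip75B and Eip74EF had log2 fold changes of 0.85 and -0.66. 

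Of 22 tested endoplasmic reticulum genes 7 were higher and 5 lower by adjusted p alone, against 20.4% and 17.1% of all genes. With the fold limit 2 were higher, against 8.7% of all genes. Ero1L, an oxidase gene of disulphide formation, was at 88.4, 76.8 and 91.7 CPM against 28.1, 29.4 and 39.9 CPM. The other was CaBP1, a disulphide isomerase gene, at 1925, 2201 and 2518 CPM against 1127, 1080 and 1111 CPM. With a log2 fold change of 1.00, CaBP1 lies at the limit, and it was not called without PP replicate 3 (0.91) or RasV12 replicate 2 (0.98). Coat protein genes of vesicle transport had no call among 17 tested, and enzyme genes of mucin O-glycosylation none among 10.

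Chitin and apical matrix genes were frequently higher in the PP. Of 25 tested 12 were higher and 2 lower, with a median of 1.18, against 8.7% and 5.44% of all genes. Gasp, a chitin-binding protein gene of the tracheal and cuticle matrix, was at 20.3, 22.8 and 33.4 CPM in the PP against 4.45, 4.56 and 4.57 CPM in RasV12-glands (log2 fold change 2.49, SE 0.19, adjusted p = 2.85e-06, edgeR). dpy, which encodes a giant matrix protein, was at 11.0, 12.9 and 29.8 CPM against 5.39, 2.98 and 2.84 CPM. kkv, the chitin synthase gene of cuticle and trachea, was at 1.83, 2.65 and 4.75 CPM against 0.747, 1.48 and 0.520 CPM, and the deacetylase genes verm and serp were higher by 1.54 and 1.45 on the log2 scale. The groups did not overlap for any of these genes, and on log2(TPM + 1), where low genes count less, 4 of the list were called higher. kkv was not called without PP replicate 2 or 3 or RasV12 replicate 1 or 3 (adjusted p = 0.0602 to 0.148, edgeR). Chs2, the chitin synthase gene of the gut lining, and the deacetylase gene Cda5 were lower by 2.98 and 1.36. Chs2 stood at 0.0299, 0.0927 and 0.0839 CPM in the PP against 0.667, 0.726 and 0.410 CPM. In w1118-glands Gasp was at 19.6 to 26.4 CPM and kkv at 2.14 to 5.47 CPM, ranges that overlapped the PP.

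Several of these genes are also markers of trachea, which attach to the gland. The list of tracheal markers summed to 47.3 to 71.8 CPM in the PP against 15.6 to 17.9 CPM in RasV12-glands. Of 6 tracheal markers tested 5 were higher (Gasp, verm, serp, uif and trh), against 8.7% of all genes. Of these, uif was not called without PP replicate 2 or 3 or RasV12 replicate 1 or 3 (adjusted p = 0.0644 to 0.117, edgeR). btl, the FGF receptor gene that defines tracheal cells, did not separate the groups, at 0.898, 0.543 and 0.503 CPM against 0.587, 0.570 and 0.684 CPM. The part of tracheal tissue in the chitin counts was not tested.

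Pigment and catecholamine genes had 3 of 13 higher and 1 lower, against 8.7% and 5.44% of all genes. e (ebony), which encodes the enzyme that joins beta-alanine to dopamine, was at 223, 804 and 462 CPM in the PP and at 9.52, 4.90 and 6.07 CPM in RasV12-glands, 72.7-fold higher (SE 0.59 on the log2 scale, adjusted p = 1.62e-05, edgeR). Entire lglRNAi;RasV12-glands reached 21.5 CPM and w1118-glands 2.39 CPM. y (yellow), a pigment gene, was at 12.9, 7.55 and 6.54 CPM against 0.960, 0.959 and 1.34 CPM. speck, the acetyltransferase gene of the same amine metabolism, was higher by 1.33 on the log2 scale, and t (tan), whose product reverses the ebony reaction, was lower by 1.15 at or below 1.04 CPM and not called without PP replicate 3 or RasV12 replicate 2 (adjusted p = 0.0667 to 0.0721, edgeR). ple, which encodes the first enzyme of dopamine synthesis, overlapped between the groups. e is on chromosome 3R at 21229839 to 21237177.

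Heat shock protein genes had the lowest median of all lists, -1.65. Of 20 tested 0 were higher and 7 lower, against 8.7% and 5.44% of all genes. Hsp83, the Hsp90 gene, was at 1005, 382 and 579.8 CPM in the PP and at 1414, 1423 and 2051 CPM in RasV12-glands (log2 fold change -1.31, adjusted p = 0.00914, edgeR). Hsp70Ab was at 869.9, 88.9 and 70.1 CPM against 1397, 1320 and 3366 CPM, and DnaJ-1, a co-chaperone gene, at 210.3, 28.3 and 44.2 CPM against 334, 347 and 574 CPM. In each of these genes PP replicate 1 was the highest of the PP and RasV12 replicate 3 the highest of its group. Hsp23, Hsp27 and Hsp67Bc were lower by 1.86, 1.57 and 2.45 on the log2 scale, and Hsp70Bb was called lower although its groups overlapped. The Hsp70 copies are near-identical, so that their separate values are uncertain. The count depended on single libraries. Without PP replicate 1 it was 13, without PP replicate 2 it was 3, without PP replicate 3 it was 1, without RasV12 replicate 1 it was 4, and without RasV12 replicate 3 it was 1, while DESeq2 gave 13. Of the genes named here only Hsp83 was called whichever library was left out. Hsc70-4, which is made without heat shock, had a log2 fold change of -0.22 and was not called.

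Detoxification genes were called in both directions. Of 61 tested cytochrome P450 genes 17 were higher and 8 lower, against 8.7% and 5.44% of all genes, with a median of 0.33. Without single libraries the lower calls numbered 2 (without PP replicate 3 or RasV12 replicate 2) to 9. Cyp6w1 was at 12.5, 13.3 and 13.8 CPM in the PP against 0.453, 0.570 and 0.657 CPM in RasV12-glands (log2 fold change 4.55, SE 0.17, adjusted p = 4.09e-08, edgeR), and Cyp6a13 at 11.5, 11.7 and 13.2 CPM against 0.240, 0.467 and 0.164 CPM. Cyp4p2 and Cyp6a14 were higher by 5.32 and 3.59 on the log2 scale. Cyp12d1-d was at 2.96, 1.31 and 0.867 CPM in the PP and at 0 in all RasV12 libraries, at least 59.4-fold higher when set against a floor of 3 counts over the group, but it is a near-identical copy of another gene. Its range in entire lglRNAi;RasV12-glands was 3.24 to 5.75 CPM, above every PP library. Those glands lay between the groups for Cyp6w1 (3.76 to 4.02 CPM), Cyp6a13 (2.24 to 3.46 CPM) and Cyp6a14 (4.36 to 6.01 CPM). For Cyp4p2 they overlapped RasV12-glands, at 0.112 to 0.280 CPM. Among redox and glutathione genes 2 of 47 were higher and 8 lower, against 8.7% and 5.44% of all genes. The lower calls numbered 4 without PP replicate 3 and 5 without RasV12 replicate 2. Gclc and Gclm, the subunits of the enzyme that makes the precursor of glutathione, went opposite ways, Gclc at 186, 290.2 and 279 CPM against 102, 93.3 and 80.8 CPM and Gclm at 68.7, 40.8 and 38.8 CPM against 136, 156 and 150.4 CPM. GstE6 was higher by 2.21 and GstD7 lower by 3.44 on the log2 scale.

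Metabolic genes were called lower more often than higher. In glycolysis 4 of 18 tested genes were lower and 0 higher, against 5.44% and 8.7% of all genes, with a median of -0.84. By adjusted p alone 13 were lower, against 17.1% of all genes. Ldh, the lactate dehydrogenase gene, was at 25.5, 22.5 and 18.3 CPM in the PP against 108, 88.0 and 62.8 CPM in RasV12-glands, 3.90-fold lower (SE 0.26 on the log2 scale, adjusted p = 0.000174, edgeR). Gapdh2 was at 488, 480.1 and 403 CPM against 1134, 1140 and 936 CPM, and Pglym78 and the trehalose transporter gene Tret1-1 were lower by 1.39 and 1.20 on the log2 scale. PyK, the pyruvate kinase gene, was the one member that was higher by adjusted p alone (log2 fold change 0.34). 

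Lipid synthesis and storage genes had 6 of 23 lower and 0 higher, against 5.44% and 8.7% of all genes, with a median of -0.49. FASN1, the fatty acid synthase gene, was at 990.5, 552 and 617 CPM in the PP and at 2194, 2159 and 2151 CPM in RasV12-glands (log2 fold change -1.59, SE 0.23). Lpin, a phosphatidate phosphatase gene, was at 194, 136 and 133 CPM against 433, 430.2 and 409 CPM, and the lipid droplet protein genes Lsd-1 and Lsd-2 were lower by 1.31 and 1.29. Fat body, the larval tissue of fat storage, lies close to the gland. Its markers moved the same way, with 6 of 9 lower, against 5.44% of all genes. Their summed level was 8383 to 9294 CPM in the PP against 17349 to 26839 CPM in RasV12-glands and 26524 to 35338 CPM in entire lglRNAi;RasV12-glands. Lsp1beta, a larval serum protein gene, was at 2339, 2137 and 2051 CPM against 4959, 6998 and 4834 CPM, the related genes Lsp1alpha, Lsp1gamma and Lsp2 were lower as well, while apolpp and Fbp1 overlapped between the groups. The part of fat body RNA in the lipid and glycolysis counts was not tested.

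Hemocyte markers had 6 of 14 higher and 0 lower, against 8.7% and 5.44% of all genes, with a median of 1.12. On log2(TPM + 1) 1 was higher. atilla, a marker of lamellocytes that other tissues also express, was at 64.1, 76.2 and 74.8 CPM in the PP and at 8.99, 10.5 and 8.43 CPM in RasV12-glands, 7.71-fold higher (adjusted p = 8.4e-08, edgeR). Hml, the hemolectin gene of plasmatocytes, was at 27.9, 12.9 and 22.5 CPM against 7.52, 5.05 and 5.20 CPM, and eater, NimC1, Pxn and Sr-CI were higher by 1.24 to 2.24 on the log2 scale. eater lost its call without any library other than PP replicate 2 (adjusted p = 0.0578 to 0.0657, edgeR) and Sr-CI without RasV12 replicate 3 (adjusted p = 0.0577, edgeR). Replicate 2 of the PP was the lowest of its group for Hml, eater, NimC1, Pxn and Sr-CI, but the highest for atilla and for the sum of all 14 markers. PPO1 and PPO2, genes of crystal cells, were not called, and neither was the hemocyte factor gene srp, which was called lower without RasV12 replicate 3 (-1.03). Matrix genes split likewise. Ppn and Pxn, matrix genes of hemocytes, and the laminin gene wb were higher, while the collagen IV genes Col4a1 and vkg, which fat body and hemocytes make, were lower by 1.77 each. Col4a1 was at 90.6, 74.8 and 71.6 CPM in the PP against 246, 321 and 242 CPM.

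**Figure D5:**
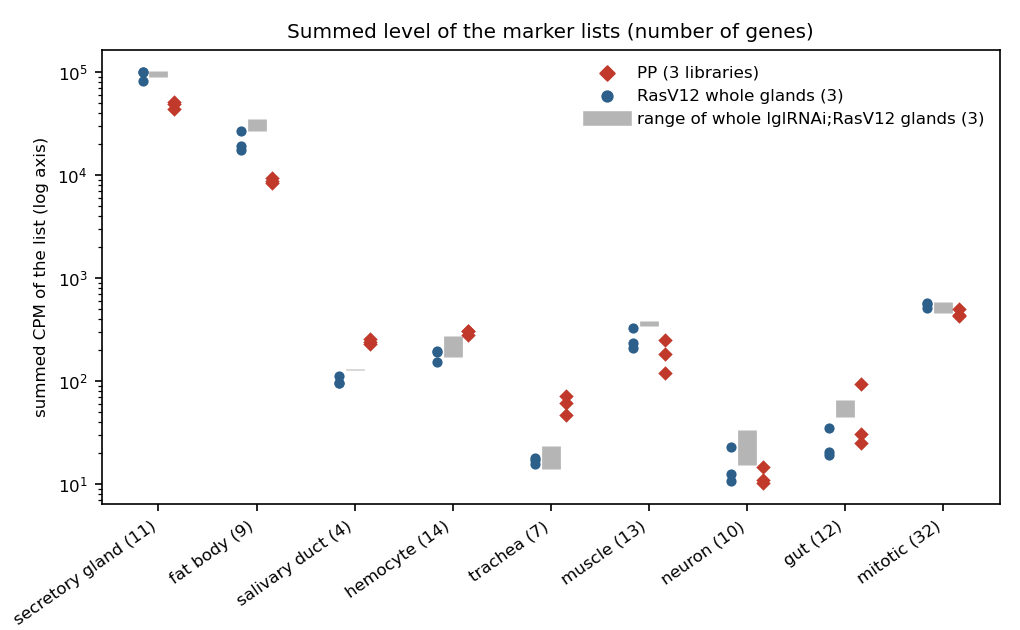
Summed CPM (log axis) of the genes of each marker list in every PP library (red diamonds) and RasV12 library (blue circles), with the range of entire lglRNAi;RasV12-glands in grey and the number of genes in brackets. The PP lies above RasV12-glands for duct, hemocyte and tracheal markers and below for fat body markers and for secretory gland markers, whose sum is largely that of glue genes.

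Markers of other tissues gave few calls. Among 12 muscle markers Mf was higher with overlapping groups and TpnC73F lower, among 8 neuronal markers para was higher at 0.539 to 1.23 CPM, and among 3 gut genes Jon65Aiii was called through 1 library, at 19.8 CPM in PP replicate 1 and 0.318 and 0.335 CPM in the other replicates. Without PP replicate 2, 4 muscle markers were called higher, and without PP replicate 2 or 3, 3 gut genes. Of the calls named here only that of TpnC73F held whichever library was left out, and Jon65Aiii had a log2 fold change of 1.13 without PP replicate 1. Mitotic genes, a sign of dividing cells such as imaginal ring cells, had 2 of 29 higher (barr and thr) and 1 lower (gwl), against 8.7% and 5.44% of all genes. Their median was 0.73, and their summed levels were 431 to 502 CPM in the PP and 510 to 566 CPM in RasV12-glands. Without RasV12 replicate 2, 8 mitotic genes were called higher, and thr lost its call in 5 of the 6 settings that leave out a library.

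Patterning genes were called at low levels. In the Notch list 5 of 19 tested were higher and 0 lower, against 8.7% and 5.44% of all genes. The higher calls numbered 3 without PP replicate 3, RasV12 replicate 1 or RasV12 replicate 3. Among the 5 was N, the receptor gene, at 10.03, 11.26 and 16.89 CPM against 4.48, 6.58 and 4.10 CPM. Its target E(spl)mbeta-HLH was higher by 2.02 on the log2 scale. Among Hedgehog, Dpp and Wingless genes 3 of 34 were higher, close to the 8.7% of all genes. These were the ligand genes wg and Wnt6 and the receptor gene fz, and the call of fz was lost without any library other than PP replicate 1. Wnt6 was at 1.95, 4.60 and 2.74 CPM against 0.827, 0.700 and 0.246 CPM. The engrailed-type factor gene inv was at 3.47, 4.24 and 3.22 CPM against 0.693, 0.778 and 0.520 CPM, and the epidermal factor genes grh and vvl were higher by 1.87 and 1.47 on the log2 scale, the former not without PP replicate 3 or RasV12 replicate 1 or 3 (adjusted p = 0.0697 to 0.0844, edgeR). The homeotic gene Antp was lower by 1.92, at or below 1.24 CPM in all 6 libraries. The protocadherin gene ds and the kinase gene fj, both upstream of Hippo signalling, were higher by 2.30 and 2.35, with the highest value of each in PP replicate 3, and neither was called without that library, RasV12 replicate 1 or RasV12 replicate 3.

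Growth regulators gave single calls. ImpL2, a secreted binding protein that inhibits insulin signalling, was at 38.7, 108 and 52.5 CPM in the PP and at 10.5, 11.6 and 5.66 CPM in RasV12-glands, 7.18-fold higher (adjusted p = 0.00028, edgeR), whereas the insulin-like gene Ilp6 was lower by 1.05 on the log2 scale and by 0.91 to 0.99, short of the limit, without PP replicate 2 or RasV12 replicate 2 or 3. Nucleolar and Myc-related genes had a median of 0.55, with 13 of 23 higher by adjusted p alone against 20.4% of all genes, but only Non1 and Polr1H passed the fold limit, and Polr1H was not called without any one library, nor Non1 without PP replicate 2 (0.87) or RasV12 replicate 2 or 3. The one called lower, pes, encodes a scavenger receptor and does not belong with these genes, although the counts and the median include it. Rab9, a gene of endosome to Golgi traffic, was at 12.2, 9.99 and 13.3 CPM against 1.41, 1.17 and 1.89 CPM. 

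A number of lists held no call in either direction, namely epithelial polarity (18 tested), septate junction (21), actin and myosin (25), autophagy (23), oxidative phosphorylation (70), cytosolic (81) and mitochondrial (73) ribosomal proteins, proteasome (36) and aminoacyl-tRNA synthetase genes (17). Proteasome genes had a median of -0.51, and 31 of the 36 were lower by adjusted p alone, against 17.1% of all genes. Cytosolic ribosomal protein genes had a median of 0.10.

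The largest fold changes of all lay partly outside these lists. LysP, a lysozyme gene, was at 193, 439 and 447 CPM in the PP and at 0.587, 1.32 and 1.31 CPM in RasV12-glands, 334-fold higher (log2 fold change 8.38, SE 0.44, adjusted p = 2.46e-07, edgeR). Entire lglRNAi;RasV12-glands held 16.4 to 26.0 CPM and w1118-glands 10.9 to 15.4 CPM, so that RasV12-glands were the lowest of the 4 groups. Lysozyme genes are alike in sequence, and LysP overlaps mwh on the opposite strand. CG43235, which overlaps Tep2, was at 14.9, 18.9 and 22.8 CPM in the PP and at or below the floor in RasV12-glands (log2 fold change 8.92). Its range in entire lglRNAi;RasV12-glands was 1.52 to 1.84 CPM, between the groups. CG32071 was at 178, 199 and 203 CPM against 0.987, 1.27 and 8.64 CPM, and w1118-glands held 280.2 to 641 CPM. tej, a gene of the germline piRNA pathway, was at 3.86, 5.66 and 7.38 CPM against 0.133, 0 and 0.0547 CPM, and CG10348 was higher by 5.83 on the log2 scale.

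For some genes the values of entire lglRNAi;RasV12-glands also lay apart from those of RasV12-glands, a comparison that shares the RasV12 libraries with the present one. phr, a photolyase gene, was at 13.8, 14.2 and 12.6 CPM in the PP, at 11.8 to 13.2 CPM in entire lglRNAi;RasV12-glands and at 0.187, 0.389 and 0.301 CPM in RasV12-glands. CG18853 (2R at 7829062 to 7830429), close to phr (2R at 7825289 to 7827319), was at 29.1, 34.4 and 25.6 CPM, 13.0 to 13.4 CPM, and 0.0533, 0 and 0.574 CPM. w1118-glands held 7.15 to 10.5 CPM of phr and 10.7 to 12.0 CPM of CG18853, so that RasV12-glands alone were low. CG31809 was at 31.3, 33.4 and 30.8 CPM in the PP against 0.400, 0.700 and 0.438 CPM, with 11.4 to 13.5 CPM in entire lglRNAi;RasV12-glands. The reverse pattern was seen for CG13215 and CG18586. CG13215 was at 0, 0.0132 and 0 CPM in the PP and at 7.01, 7.08 and 3.20 CPM in RasV12-glands. Its summed counts were 1 and 653, a ratio of 839 with an exact 95% interval of 150 to 33173 that covers counting error only. CG18586 was at 0.150, 0 and 0 CPM against 6.43, 7.21 and 6.24 CPM. For both genes entire lglRNAi;RasV12-glands and w1118-glands stayed at or below 0.436 CPM. Gene overlaps limit some of these values, because reads cannot be assigned by strand. phr overlaps Prosalpha1 and CG18853 overlaps Prosalpha1R, each on the opposite strand, and CG18586 overlaps CG5568 on the same strand.

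Other genes were low in the PP while entire glands of both genotypes lay higher. Dscam4, a gene of the Dscam cell adhesion family, was at 0.329, 0.331 and 0.475 CPM in the PP and at 15.0, 12.5 and 11.1 CPM in RasV12-glands, 34.4-fold lower (log2 fold change -5.11, SE 0.31), and entire lglRNAi;RasV12-glands held 12.2 to 16.0 CPM. Its relative Dscam1, known for its many splice forms, went the other way, at 45.0, 64.0 and 53.7 CPM against 7.92, 9.38 and 5.63 CPM (log2 fold change 2.83, SE 0.23). For Dscam1 entire lglRNAi;RasV12-glands lay between the groups, at 19.2 to 27.1 CPM. CG6282 was at 0.180, 0.0662 and 0.0280 CPM in the PP against 7.68, 6.43 and 4.60 CPM, with 6.07 to 10.7 CPM in entire lglRNAi;RasV12-glands. hiro was at 13.3, 13.5 and 9.06 CPM against 109, 128 and 75.03 CPM, and CG11893, Cubn2 and prc, a matrix gene of the heart, were lower by 3.86, 3.29 and 3.13 on the log2 scale. The immunoglobulin-domain gene dpr1 and CG2003 were lower by 3.31 and 3.14, with values in entire lglRNAi;RasV12-glands of 1.83 to 3.88 CPM and 6.26 to 7.06 CPM between those of the groups. CG31274 was at 0, 0 and 2.32 CPM in the PP against 3.47, 14.5 and 11.0 CPM. Obp44a, an odorant-binding protein gene, was at 33.7 CPM in RasV12 replicate 2 and at most 4.81 CPM in the others. Without that library Obp44a was not called (log2 fold change -2.10, adjusted p = 0.0604, edgeR), and CG31274 was not called with DESeq2 (adjusted p = 0.0578). Dscam4, CG2003, dpr1, prc and Obp44a overlap CG7213, heph, CG13442, CG43294 and Pabp2, in that order, on the opposite strand. Their reads cannot be assigned by strand.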

How the data were processed

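Poly(A)-selected RNA of dissected SGs was sequenced as paired-end reads, with a library kit that does not mark the strand. The authors quantified transcripts with kallisto 0.44.0 against transcripts of the fly genome, and they deposited, for each of 12 libraries, estimated counts and TPM (counts per effective transcript length, scaled by kallisto) without pooling. Here estimated counts were summed per gene, 30279 of 30503 transcripts having a gene in the annotation (dm6 coordinates), and rounded to whole numbers. The 224 unmatched transcripts held 0.197% to 0.359% of counts. Of 13825 genes, 9012 passed edgeR's filter (minimum count 10). All 12 libraries in 4 groups were fitted with edgeR 4.0.16 (TMM, quasi-likelihood test, Benjamini-Hochberg adjustment, R 4.3.3), which shares one estimate of the spread, and a gene was called where the adjusted p was 0.05 or less and the log2 difference 1 or more in either direction. Code was tested on simulated data. Genes were named by rule: the targeted genes, for each direction the 12 largest log2 fold changes (5 CPM or more, no overlap) and the 8 largest differences in CPM, and members of the gene lists. Within lists the rule admits up to 6 called members a direction and 3 uncalled, and Eip75B, Hsp83, PyK and kkv were named in addition, after their values were seen. The comparison and the lists were chosen with earlier results of these data known. Alternatives were other scalings, DESeq2 1.42.0, limma 3.58.1 on log2(TPM + 0.1) and log2(TPM + 1), no filter, fewer libraries and a replicate block.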

Additional observations from a re-analysis of the deposited data

How the results depend on the processing

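The counts of 784 higher and 490 lower genes moved by less than 1.5 times with RLE, upper-quartile or library-size scaling, DESeq2, no filter, the 6 libraries alone or limma on log2(TPM + 0.1). On log2(TPM + 1) 354 were higher and 286 lower, a scale on which low genes change less. By adjusted p alone the counts were 1839 and 1538. With only the libraries that share the number ending the label of PP replicate 1, which leaves a single PP library assumed to vary like the other groups, 322 were higher and 96 lower. The meaning of that number is not given. Without one replicate, 697 to 795 genes were higher and 388 to 493 lower, l(2)gl ranged from -0.23 to -0.01 and Ras85D from -0.31 to -0.13. With the replicate number as a block, 762 genes were higher and 494 lower. The block also brought Mmp1 past both limits (1.12, adjusted p = 0.0406, edgeR). Same-numbered libraries did not deviate together (r -0.15 to -0.06), so the numbers were not taken as pairs. Positive r was seen for PP replicate 1 with RasV12 replicate 3 (0.26), PP replicate 2 with RasV12 replicate 1 (0.19) and PP replicate 3 with RasV12 replicate 2 (0.20). A block of these pairs was not tested. Of 3124 values for single named genes under the alternatives, 2765 kept direction and call, 310 lost the call, 16 gained it and 33 changed sign. All changes of sign concern genes that were not called. With the replicate block AttB came to 0.18, BomS3 to 0.04, Dro to 0.37 and Fbp1 to 0.01 on the log2 scale. With the label number AttB came to 0.78 and BomS3 to 0.07. By library size Dro and imd came to 0.03 each. dl came to -0.02 with RLE and DESeq2 and to -0.09 on both TPM scales, btl to -0.05 and -0.01, and fkh to -0.01 on both. Without one replicate AttB ranged from -0.75 to 0.74, BomS3 from -1.3 to 0.11, Dro from -1.24 to 0.4, Fbp1 from -0.47 to 0.31, Mtk from -0.99 to 0.02, btl from -0.22 to 0.22, dl from -0.06 to 0.13, imd from -0.08 to 0.07 and rpr from -0.58 to 0.05. The causes were not tested.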
